A study of Mus musculus with 19 samples.

Results

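The subject here is the interaction of genotype and ibuprofen in mouse hippocampus, that is, how far the response to the drug in APP-PS1 mice differed from the response in wild-type mice. For each gene the difference between ibuprofen and control chow in wild-type mice was subtracted from the same difference in APP-PS1 mice. A value below 0 means that the response was lower in APP-PS1 mice than in wild-type mice, and a value above 0 that it was higher. All 19 arrays of the series entered, and 19938 genes were measured from 35556 probe sets, with 1 probe set per gene. APP-PS1 mice carried the APPSwe and PS1deltaE9 transgenes, and the other mice were their wild-type littermates on the C57BL/6J strain. Ibuprofen chow held the drug at 375 ppm and control chow held no additive, and mice ate one or the other between ages of 3 and 6 months, after which the hippocampus was removed. There were 4 arrays of wild-type mice on control chow, 5 of wild-type mice on ibuprofen, 5 of APP-PS1 mice on control chow and 5 of APP-PS1 mice on ibuprofen. In this transgenic line the mouse prion protein promoter drives both transgenes, so they are made in neurons and glia across the brain. Sex, litter and batch are not in the labels, which also do not say whether each array is 1 animal, so the spread between arrays of a group may be partly technical.

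Ibuprofen blocks the cyclooxygenases, the enzymes that turn arachidonic acid into prostaglandins. Prostaglandins act on nearby cells through receptors that raise or lower cyclic AMP or calcium, and in brain they take part in inflammation, blood flow and synaptic activity. The hippocampus holds granule cells of the dentate gyrus, pyramidal cells of CA1 to CA3, interneurons, astrocytes, oligodendrocytes, microglia and vessels. RNA of the whole tissue was measured, so fewer cells of a type and less RNA per cell cannot be told apart.

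App and Prnp, the genes of the amyloid precursor protein and the prion protein, checked the genotype labels. App lay at 13.16 to 13.40 on the 9 wild-type arrays and at 13.55 to 13.64 on the 10 APP-PS1 arrays (log2 expression). Prnp lay at 12.67 to 12.83 on the former and at 13.31 to 13.44 on the latter. Neither gene overlapped between genotypes, and their interactions were -0.06 (SE 0.05) and 0.00 (SE 0.05) on the log2 scale. Prox1, which sets granule cell identity, lay at 10.10 to 10.90 on all arrays. The Y-linked gene Eif2s3y was at 9.43 or above on every array, and Xist, the transcript of the inactive X, lay at 5.33 to 5.82. The Y-linked genes Eif2s3y, Kdm5d and Uty were low together on some ibuprofen arrays. They read 9.43, 9.11 and 9.64 on APP-PS1 replicate 1. On wild-type replicate 2 they read 9.91, 9.33 and 9.82, and on wild-type replicate 1 10.26, 9.39 and 9.94. Elsewhere Eif2s3y lay at 10.42 to 11.09, Kdm5d at 9.74 to 10.38 and Uty at 10.37 to 10.73. The cause was not tested. Ttr, the main transcript of the choroid plexus beside the hippocampus, ranged from 10.56 to 14.17 and had an interaction of 0.67 (SE 1.11), and of 1.16 without the 3 arrays named next. A median correlation with the other arrays under 0.99 set 3 arrays apart, namely APP-PS1 control replicate 1 (0.9895) and wild-type ibuprofen replicates 1 (0.9873) and 5 (0.9739). Their upper quartiles over genes were 10.22, 10.22 and 10.32, against 9.98 to 10.11 on the other 16 arrays. They lie in 2 of the 4 groups, which both enter the interaction with a minus sign. A reading that is high on them lowers the APP-PS1 response and raises the wild-type response. The results that follow are also given without them. A second value after an interaction or a median, where nothing else is said, is the value without these arrays.

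No gene passed in the interaction. With limma, 0 of 19938 genes (0%) reached an adjusted p under 0.05, and the smallest adjusted p was 0.208. At an unadjusted p under 0.05 there were 4087 genes (20.5%), of which 3190 were lower in APP-PS1 mice (16.0%) and 897 higher (4.50%). The split depended on the scaling of the arrays. It was 1433 lower and 1838 higher when each array was centred on its median, which moved the median interaction of all genes from -0.07 to 0.03, and 1299 lower and 1061 higher after a quantile normalization added across all arrays. With the 3 arrays left out, 1354 genes were lower (6.79%) and 482 higher (2.42%), again with 0 called. With no threshold 64.4% of genes had an interaction below 0 and 35.6% above 0, and 49.2% and 50.8% without the 3 arrays. Counts of each gene list are set against these shares, which are not matched for expression level. For all genes the median interaction was 0.00 both without the 3 arrays and after an added quantile normalization. A fit that weighted arrays by their quality called 174 genes, 158 lower and 16 higher, with a smallest adjusted p of 0.0119. Without APP-PS1 ibuprofen replicate 2, 13 genes were called, all lower.

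Within each genotype limma likewise called 0 genes (0%) for ibuprofen in APP-PS1 mice and 0 genes (0%) in wild-type mice. At an unadjusted p under 0.05, APP-PS1 mice had 930 genes lower on ibuprofen (4.66%) and 362 higher (1.82%). Wild-type mice had 1810 genes higher (9.08%) and 388 lower (1.95%). The 2 responses, which share no array, ran against each other across genes, with Pearson's r of -0.52 and Spearman's rho of -0.55 over 19938 genes, which are not independent replicates. Without the 3 arrays r was -0.16 and rho -0.23, and after an added quantile normalization r was -0.40. The signs were opposite in 14747 genes (74.0%) with no threshold, and in 59.2% without the 3 arrays. Lower in APP-PS1 and higher in wild-type mice, again with no threshold, were 49.5% of genes, and 30.4% without the 3 arrays.

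Genes with an unadjusted p under 0.05 in both genotypes and opposite signs numbered 229 (1.15%), and 5 genes had the same sign in both (0.0251%). Of the 229, 206 were lower in APP-PS1 mice and higher in wild-type mice on ibuprofen (1.03%), and 23 went the other way (0.115%). When the 3 arrays were left out there were 71 (0.356%) and 9 (0.0451%), against 19 with the same sign (0.0953%). All 206 and all 23 kept both signs without the 3 arrays, and 43 and 3 of them also kept both p-values under 0.05. The count moved with single arrays. It was 97 without APP-PS1 control replicate 1, 149 without APP-PS1 control replicate 5, 129 without APP-PS1 ibuprofen replicate 3 and 130 without APP-PS1 ibuprofen replicate 4. It was 101 without wild-type control replicate 3 and 123 without wild-type control replicate 4. It was larger, at 363, without APP-PS1 ibuprofen replicate 2 and, at 519, without wild-type ibuprofen replicate 4.

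**Figure D1:**
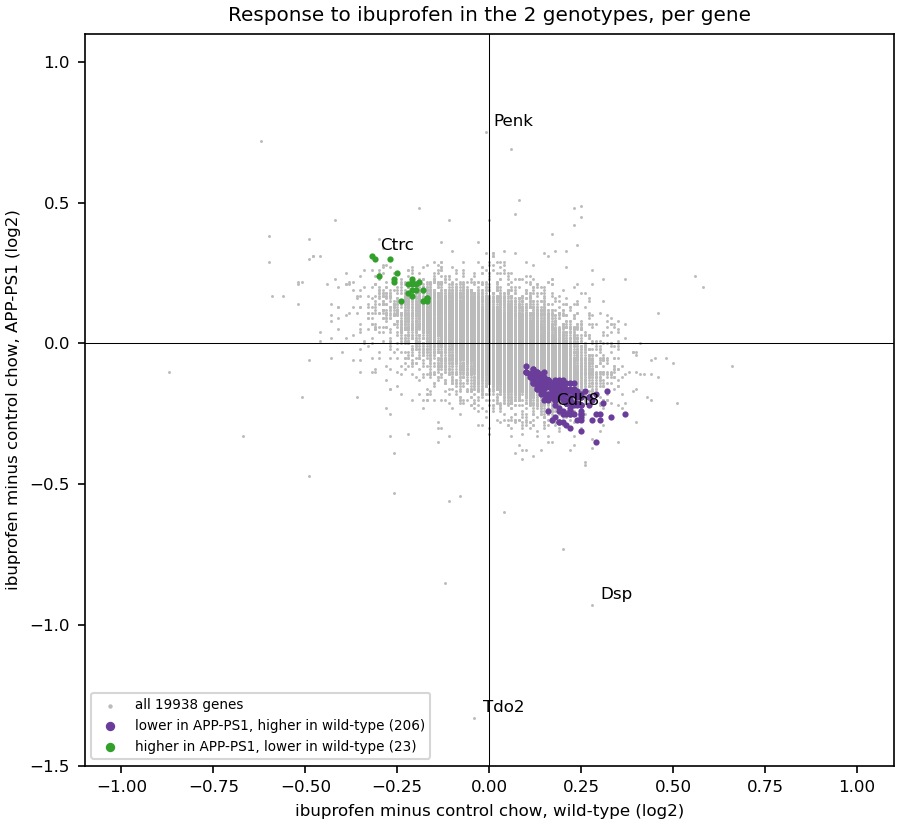
Each grey point is 1 of 19938 genes, with its difference between ibuprofen and control chow in wild-type mice on the horizontal axis and in APP-PS1 mice on the vertical axis (log2). Purple marks the 206 genes lower in APP-PS1 and higher in wild-type mice and green the 23 genes with the reverse (unadjusted p under 0.05 in both); Dsp, Tdo2 and Penk lie far from 0 along the APP-PS1 axis.

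The 2 patterns held genes of different brightness. The 206 genes had a median level of 10.10, the 23 genes one of 7.49, and all genes one of 8.66 (log2 expression). When genes were split by mean level into 10 bins of equal size, the median interaction was -0.01 in bin 1, the dimmest, and 0.11 in bin 3. It was -0.18 in bin 7 and -0.09 in bin 10, the brightest. Without the 3 arrays these medians ran from 0.08 in bin 3 to -0.06 in bins 7 to 10. After an added quantile normalization none was outside -0.03 to 0.02, and 79 genes then had the first pattern and 38 the reverse. Counts at an unadjusted p under 0.05 also followed brightness. With all arrays, 57 of 1994 genes were lower in bin 1, 617 of 1994 in bin 8 and 459 of 1994 in bin 10. Higher were 232 of 1994 in bin 3 and 13 of 1994 in bin 10. A list of bright or dim genes can therefore differ from all genes by its level alone.

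**Figure D2:**
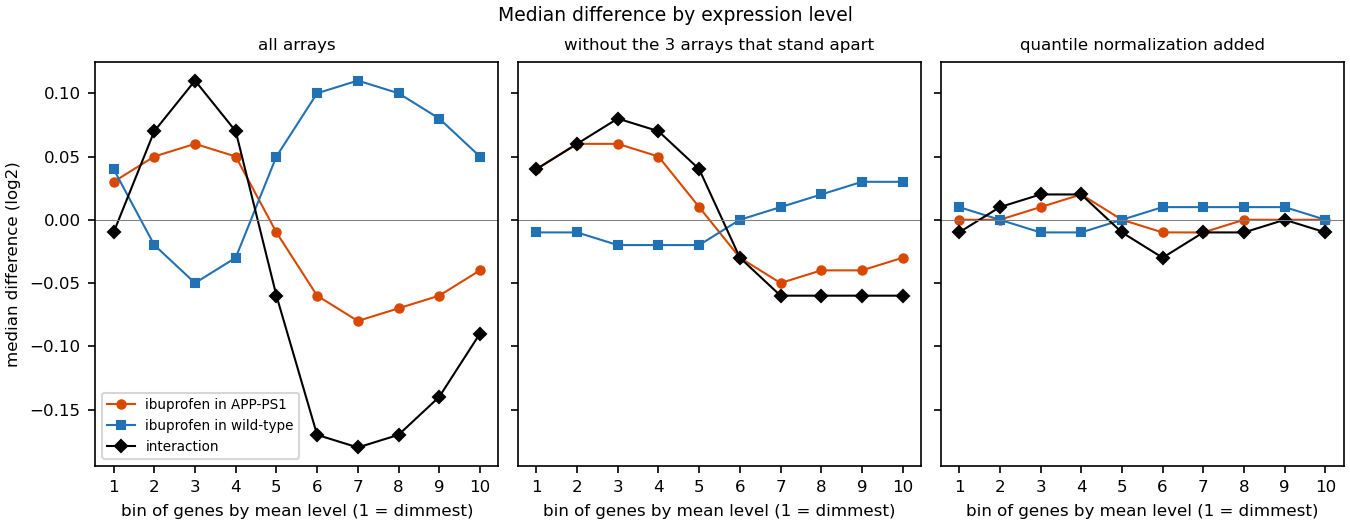
Median log2 difference (vertical axis) of genes split into 10 bins by mean level (horizontal axis, 1 = dimmest) for ibuprofen in APP-PS1 mice (circles), in wild-type mice (squares) and the interaction (diamonds), in 3 settings. With all arrays the interaction reaches -0.18 in bin 7, and after an added quantile normalization all bins lie within -0.03 to 0.02.

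In the lower direction the 12 genes of smallest interaction p were Iqgap2, Cdh8, Kctd4, Cap2, Plcl1, Gjc3, Jph1, Crot, Epha7, Clvs2, B3galt5 and Dsp. Iqgap2, a scaffold of the actin skeleton (probe set 10411235), had the smallest p. It read 11.35, 11.46, 11.27 and 11.38 on wild-type control arrays and 11.56, 11.55, 11.62, 11.53 and 11.69 on wild-type ibuprofen arrays. In APP-PS1 mice it read 11.50, 11.45, 11.49, 11.38 and 11.51 on control arrays and 11.29, 11.42, 11.36, 11.29 and 11.29 on ibuprofen arrays. All wild-type ibuprofen arrays lay above their controls, while the APP-PS1 groups overlapped. The interaction was -0.36 (SE 0.07, adjusted p = 0.208 by limma), made of -0.14 (SE 0.05) in APP-PS1 and 0.23 (SE 0.05) in wild-type mice. It was -0.33 without the 3 arrays.

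Cdh8 encodes cadherin-8, an adhesion protein of synapses (probe set 10580990). Wild-type control arrays read 10.92, 11.04, 10.97 and 10.98, and wild-type ibuprofen arrays 11.09, 11.10, 11.15, 11.06 and 11.28. In APP-PS1 mice the control arrays read 11.19, 10.98, 11.11, 11.08 and 11.07, and the ibuprofen arrays 10.86, 10.94, 10.74, 10.84 and 10.88. Neither genotype overlapped between diets, and the directions were opposite. The interaction was -0.39 (SE 0.07, adjusted p = 0.208 by limma), from -0.24 (SE 0.05) in APP-PS1 and 0.16 (SE 0.05) in wild-type mice, and -0.34 without the 3 arrays.

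Kctd4, a member of the potassium channel tetramerization domain family (probe set 10416505), had the same form. Wild-type control arrays read 11.02, 11.01, 10.85 and 11.03, and wild-type ibuprofen arrays 11.15, 11.20, 11.11, 11.12 and 11.28. In APP-PS1 mice the control arrays read 11.28, 11.03, 11.23, 11.12 and 11.15, and the ibuprofen arrays 10.90, 11.03, 10.64, 10.94 and 10.92. The wild-type diets did not overlap, and in APP-PS1 mice the highest ibuprofen array and the lowest control array, both of replicate 2, met at 11.03 when rounded. The interaction was -0.47 (SE 0.09), and -0.42 without the 3 arrays.

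The other 9 genes of the 12 with the smallest p in this direction had interactions from -0.27 to -1.21. Cap2, which regulates actin filaments, stood at -0.27 (SE 0.05), with 12.73 to 12.88 on APP-PS1 ibuprofen arrays against 12.90 to 13.05 on their controls. Jph1, a junctophilin that ties the cell membrane to the endoplasmic reticulum, was at -0.51 (SE 0.11). Epha7, a receptor for ephrins in axon guidance, was at -0.35 (SE 0.08). Plcl1, a phospholipase C-like protein that binds GABA receptor partners, was at -0.49 (SE 0.10). Gjc3, a connexin of oligodendrocytes, was at -0.46 (SE 0.10), Crot, a peroxisomal carnitine acyltransferase, at -0.47 (SE 0.10), and B3galt5, a galactosyltransferase, at -0.52 (SE 0.12). Clvs2, a clathrin-binding lipid transfer protein of neurons, was at -0.39 (SE 0.09). Dsp, described with the granule cell genes, had the largest interaction of the 12. All 12 had an adjusted p of 0.208 and all 12 kept their sign without the 3 arrays, at -0.21 (Cap2) to -1.24 (Dsp). With array weights limma called all 12. Over the alternatives their adjusted p reached from 0.0119 for Iqgap2 and Cdh8 to 0.885 with the oligodendrocyte covariate.

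**Figure D3:**
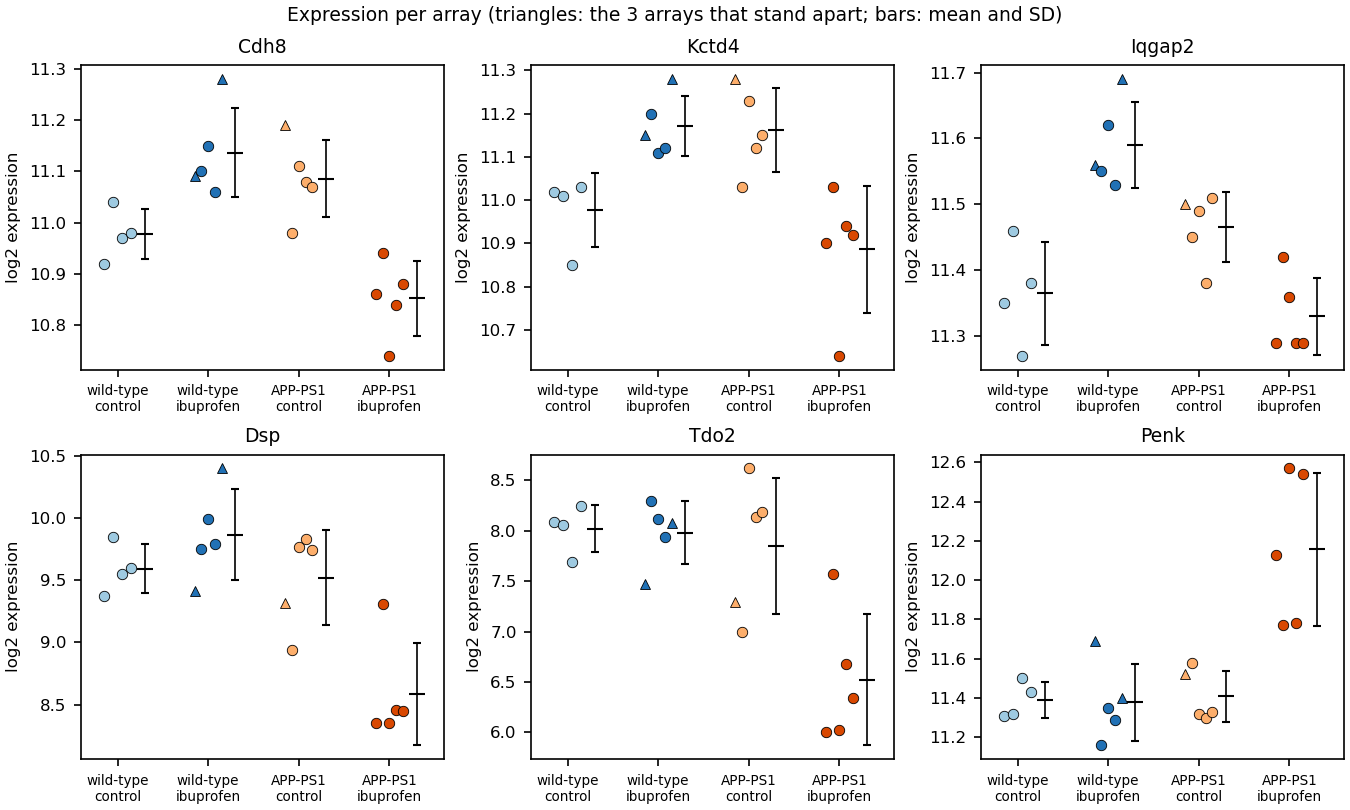
Log2 expression of 6 genes on each array, in the 4 groups, with triangles for the 3 arrays that stand apart and bars for the mean and SD (n = 4 in wild-type control, 5 in the others). Cdh8, Kctd4 and Iqgap2 lie higher on ibuprofen in wild-type and lower in APP-PS1 mice, whereas Dsp and Tdo2 are low and Penk is high on APP-PS1 ibuprofen arrays.

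There were 16 genes that did not overlap between diets in either genotype and were lower in APP-PS1 and higher in wild-type mice (0.0802%), and 0 showed the reverse (0%). In single genotypes, 2.27% of genes lay wholly below control in APP-PS1 mice and 1.94% wholly above control in wild-type mice. The 15 with standard names were Cap2, Cdh8, Crot and Kctd4, and also Arpc5, Camk1d, Ermp1, Gtf2h5, Msl2, Peli1, Rnf139, Srp72, Tbc1d14, Tigd2 and Vmp1. The last 11 were named for this separation, after their values were seen. Among them Arpc5 is a subunit of the actin-branching complex, Camk1d a calmodulin-dependent kinase, and Tbc1d14 and Vmp1 act in autophagy.

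Among the 206 genes with opposite responses, those with the largest responses in both genotypes had diverse roles. Il1rap, the shared co-receptor of interleukin-1 and interleukin-33, read 10.12, 10.25, 9.83 and 10.04 on wild-type control arrays and 10.25, 10.31, 10.28, 10.16 and 10.55 on wild-type ibuprofen arrays. APP-PS1 control arrays read 10.35, 9.94, 10.15, 10.10 and 10.21, and APP-PS1 ibuprofen arrays 9.87, 10.10, 9.82, 9.59 and 9.80. The diets overlapped in both genotypes, with responses of -0.31 (SE 0.09) in APP-PS1 and 0.25 (SE 0.10) in wild-type mice. The interaction was -0.57 (SE 0.14), and -0.46 without the 3 arrays. Ccbe1, an extracellular matrix protein of lymphatic growth, had responses of -0.26 (SE 0.10) and 0.33 (SE 0.11). Pcdhb7, a clustered protocadherin, had -0.27 (SE 0.09) and 0.28 (SE 0.09). Zfp760, a zinc finger gene, had -0.25 (SE 0.12) and 0.37 (SE 0.12). With those arrays left out the wild-type responses of these 3 genes were 0.17 to 0.19 and the APP-PS1 responses -0.20 to -0.23.

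Tdo2 and Dsp, both markers of dentate granule cells, had the lowest interactions of all 19938 genes, and most of their list lay below 0. Of 18 measured members, 15 had an interaction below 0 and 7 had an unadjusted p under 0.05, all lower in APP-PS1 mice (38.9%, against 16.0% of all genes). The median was -0.17, against -0.07 for all genes, and -0.24 without the 3 arrays, when 9 of 18 were lower at that p (50.0%, against 6.79%). The median was -0.07 both after centring arrays on their medians and after an added quantile normalization, against 0.03 and 0.00 for all genes. After that normalization 6 of 18 were lower at that p (33.3%, against 6.52%). With the deposited values the median response was -0.13 in APP-PS1 and 0.15 in wild-type mice. In all, 9 of 18 had the sign pattern of lower in APP-PS1 and higher in wild-type mice, near the 49.5% of all genes, 1 the reverse, and 8 the same sign in both. The list was chosen with earlier results of these data known, so its shares are not independent support. Its median level was 10.34, in bin 8. In that bin 617 of 1994 genes were lower at that p with all arrays. Without the 3 arrays 261 were lower, and after an added quantile normalization 102.

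Dsp, the desmosomal protein desmoplakin, marks granule cells (probe set 10404649). Wild-type control arrays read 9.37, 9.85, 9.55 and 9.60, and wild-type ibuprofen arrays 9.41, 9.75, 9.99, 9.79 and 10.40. In APP-PS1 mice the control arrays read 9.32, 8.94, 9.77, 9.83 and 9.74, and the ibuprofen arrays 8.35, 9.31, 8.35, 8.46 and 8.45. Below all other arrays lay 4 of the 5 APP-PS1 ibuprofen arrays, and replicate 2 lay among the controls. The interaction was -1.21 (SE 0.28), from -0.93 (SE 0.19) in APP-PS1 and 0.28 (SE 0.20) in wild-type mice, and -1.24 without the 3 arrays.

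Tdo2 encodes tryptophan 2,3-dioxygenase, which opens the kynurenine pathway of tryptophan breakdown (probe set 10498921). Wild-type control arrays read 8.09, 8.06, 7.69 and 8.25, and wild-type ibuprofen arrays 7.47, 8.30, 8.12, 7.94 and 8.08. In APP-PS1 mice the control arrays read 7.29, 7.00, 8.62, 8.14 and 8.19, and the ibuprofen arrays 6.00, 7.57, 6.02, 6.68 and 6.34. Again 4 of the 5 APP-PS1 ibuprofen arrays lay below all other arrays, and replicate 2 was the highest of the group. The interaction was -1.29 (SE 0.41, adjusted p = 0.208 by limma), of which the wild-type response was -0.04 (SE 0.30), so that Tdo2 was not a gene of opposite responses. Without the 3 arrays it was -1.56.

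The other members of the granule cell list with a low p did have opposite signs. Prox1 had -0.27 (SE 0.08) in APP-PS1 and 0.17 (SE 0.08) in wild-type mice, with an interaction of -0.44 (SE 0.11), and -0.38. Lct, the lactase gene, had an interaction of -0.69 (SE 0.20), and -0.54. Il16, a cytokine gene with a neuronal form, had one of -0.52 (SE 0.14), and -0.43. Sema5a, a semaphorin, and Dock10 completed the 7 at -0.45 and -0.32, or -0.37 and -0.29 without the 3 arrays, and are named to complete that count. Members near 0 were Cdh9, C1ql3 and Spata13, at 0.01, -0.07 and 0.04 with all arrays and -0.03, -0.23 and 0.12 without the 3. Calb1, the calcium buffer calbindin, stood at -0.20 (SE 0.13) and at -0.38 without the 3 arrays. The list mean of APP-PS1 ibuprofen replicate 2 was 10.24, the highest of its group, whose lowest array was at 9.68. The mean lay at 10.08 to 10.32 on APP-PS1 controls. Wild-type arrays lay at 10.15 to 10.27 on control and 10.24 to 10.42 on ibuprofen chow.

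**Figure D4:**
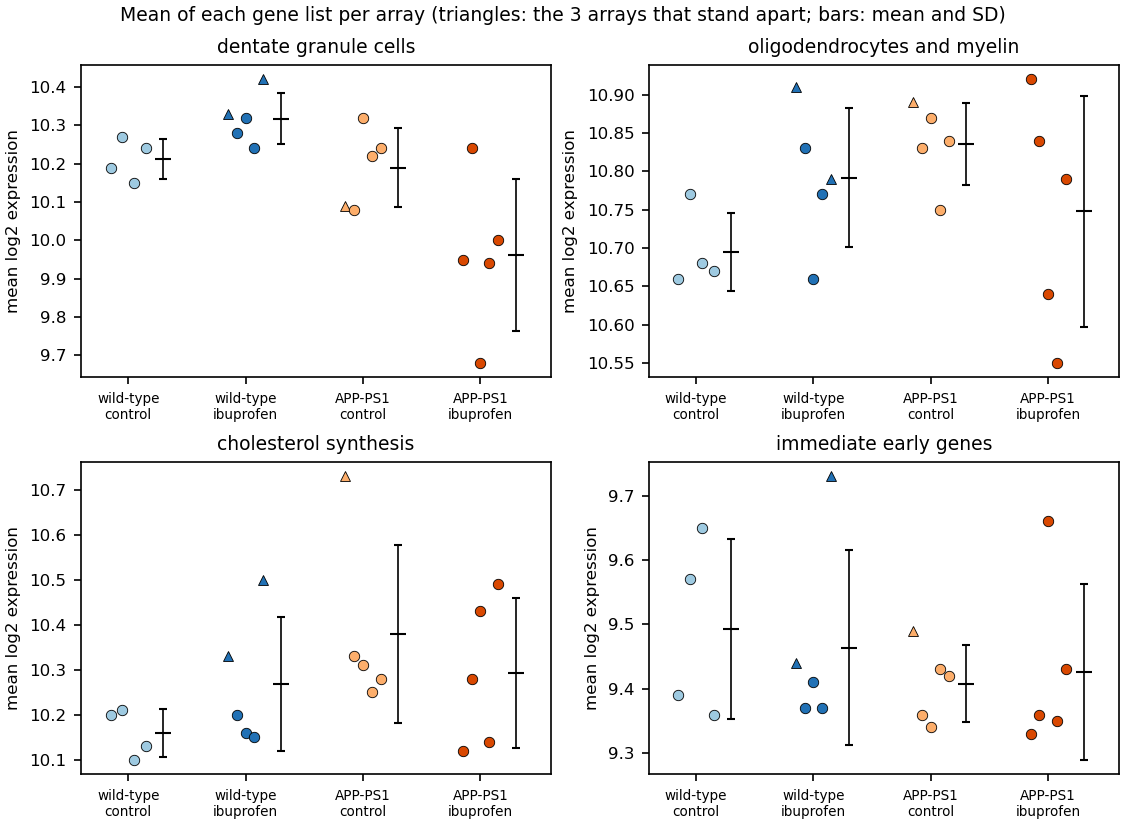
Mean log2 expression of 4 gene lists on each array, in the 4 groups, with triangles for the 3 arrays that stand apart and bars for the mean and SD (n = 4 in wild-type control, 5 in the others). Granule cell genes are low on 4 of 5 APP-PS1 ibuprofen arrays. Cholesterol synthesis genes are highest on APP-PS1 control replicate 1, at 10.73, and wild-type ibuprofen replicate 5, at 10.50. Next come APP-PS1 ibuprofen replicates 5 and 3, at 10.49 and 10.43, which do not stand apart.

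Promoter sequences from RefSeq (build GRCm38.p6, 250 bases before to 50 after the start) are shown for Cdh8, which separated the diets in both genotypes, and for Dsp and Tdo2, which had the largest interactions of the granule cell list. Capitals mark 3 motifs searched on both strands: the GC box GGGCGG, the TATA box TATAAA and the cyclic AMP response element TGACGTCA, which does not overlap the other two. Of 6 genes looked up, 4 had a promoter in the table.
Cdh8, chr8:99416422-99416721, minus strand: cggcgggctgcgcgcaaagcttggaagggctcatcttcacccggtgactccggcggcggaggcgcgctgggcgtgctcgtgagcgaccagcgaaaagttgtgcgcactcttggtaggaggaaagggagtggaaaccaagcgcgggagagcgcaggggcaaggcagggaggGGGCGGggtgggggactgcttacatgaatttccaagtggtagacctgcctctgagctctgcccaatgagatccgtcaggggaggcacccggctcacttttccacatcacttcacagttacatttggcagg
Dsp, chr13:38151044-38151343, plus strand: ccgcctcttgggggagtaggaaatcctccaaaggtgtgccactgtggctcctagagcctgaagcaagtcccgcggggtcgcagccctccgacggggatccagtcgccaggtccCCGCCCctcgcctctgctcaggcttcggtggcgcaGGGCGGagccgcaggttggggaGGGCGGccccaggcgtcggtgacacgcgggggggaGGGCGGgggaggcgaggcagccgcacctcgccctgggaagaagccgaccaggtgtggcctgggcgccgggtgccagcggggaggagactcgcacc
Tdo2, chr3:81975679-81975978, minus strand: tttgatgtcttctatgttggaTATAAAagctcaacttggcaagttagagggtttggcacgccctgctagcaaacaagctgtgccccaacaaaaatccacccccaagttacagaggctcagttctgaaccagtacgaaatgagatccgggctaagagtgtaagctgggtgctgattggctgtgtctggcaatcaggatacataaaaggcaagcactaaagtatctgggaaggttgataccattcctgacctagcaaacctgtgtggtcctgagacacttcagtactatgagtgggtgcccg
The Dsp window held 4 GC boxes at 73% G and C, and the Cdh8 window 1 GC box at 62.3%. The Tdo2 window held 0 GC boxes and 1 match to TATAAA at 47.7% G and C. That match lies near the upstream end of the window, far from the start, and whether it acts was not tested. The median over promoters was 52.7%. Of 32851 windows of this length, 35.7% held the GC box, 13.6% the TATA box and 1.79% the cyclic AMP response element, of which these 3 windows held 0. No motif searched was found in all 3 windows.

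Of the 12 genes of smallest p in the higher direction, Penk had the largest interaction. It encodes proenkephalin, the precursor of the enkephalin opioid peptides (probe set 10511363). Wild-type control arrays read 11.31, 11.32, 11.50 and 11.43, and wild-type ibuprofen arrays 11.69, 11.16, 11.35, 11.29 and 11.40. In APP-PS1 mice the control arrays read 11.52, 11.58, 11.32, 11.30 and 11.33, and the ibuprofen arrays 12.13, 11.77, 12.57, 11.78 and 12.54. All 5 APP-PS1 ibuprofen arrays lay above all other arrays, while the wild-type diets overlapped. The interaction was 0.76 (SE 0.19, adjusted p = 0.208 by limma), from 0.75 (SE 0.13) in APP-PS1 and -0.01 (SE 0.14) in wild-type mice, and 0.90 without the 3 arrays.

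Penk is also a marker of striatum, and 14 striatal markers were measured. Their median interaction was 0.07, and 0.11 without the 3 arrays, with 2 of 14 higher at an unadjusted p under 0.05 (14.3%, against 4.50% of all genes) and 4 lower (28.6%, against 16.0%). When the 3 arrays were left out 2 were higher and 0 lower. Drd1, the D1 dopamine receptor, read 9.27, 8.81, 9.35, 9.26 and 9.39 on APP-PS1 ibuprofen arrays and 8.59 to 8.94 on APP-PS1 controls, with an interaction of 0.39 (SE 0.17), and 0.52. The striatal mean was 9.31 to 9.54 on APP-PS1 ibuprofen arrays, 9.28 to 9.43 on APP-PS1 controls, 9.30 to 9.50 on wild-type controls and 9.29 to 9.64 on wild-type ibuprofen arrays. With the striatal mean as a covariate, which holds Penk itself and was highest on wild-type ibuprofen replicate 5, limma called 2503 genes, 2091 lower and 412 higher, with a smallest adjusted p of 0.0314. In that fit the interaction of Penk was 0.74. Npy, the peptide neuropeptide Y, had an interaction of 0.30 (SE 0.15), and 0.38, with 12.24 and 12.03 on APP-PS1 ibuprofen replicates 3 and 5 and 11.59 to 11.61 on the other 3. Over 23 neuropeptide genes the median was 0.05, and 0.13 without the 3 arrays.

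Markers of CA pyramidal cells had a median interaction of -0.20, with 17 of 20 below 0 and 8 of 20 lower at an unadjusted p under 0.05 (40.0%, against 16.0%). The median without the 3 arrays was -0.10, and 0 of 20 were then lower at that p. The list had a median level of 10.26, in bin 8, where 617 of 1994 genes were lower with all arrays. Amigo2, an adhesion protein of CA2 and CA3, had an interaction of -0.41 (SE 0.16), and -0.15 without the 3 arrays. It read 9.82 and 10.09 on wild-type ibuprofen replicates 1 and 5 and 9.43 to 9.67 on the other 3. Iyd, an iodotyrosine deiodinase, stood at -0.50 (SE 0.19), Spink8, a protease inhibitor of CA1, at -0.42 (SE 0.16), and Gpr161, a receptor of primary cilia, at -0.31 (SE 0.12). These 3 were at -0.33, -0.22 and -0.17 without the 3 arrays.

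Genes of ion channels and synaptic receptors were counted against the 64.4% of all genes with an interaction below 0 and the 16.0% lower at an unadjusted p under 0.05. These lists were brighter than all genes, whose median level was 8.66. Median levels were 11.17 for sodium and calcium channels, 10.24 for potassium channels, 11.34 for glutamate receptors and 11.96 for GABA receptors. At that p, 617 of 1994 genes were lower in bin 8, 608 in bin 9 and 459 in bin 10. Without the 3 arrays these counts were 261, 308 and 335. Of 25 sodium and calcium channel genes, 19 had an interaction below 0 and 8 were lower at an unadjusted p under 0.05 (32.0%), with a median of -0.12. Without the 3 arrays the median was -0.08 and 6 of 25 were lower (24.0%, against 6.79% of all genes). After an added quantile normalization the median was -0.03 and 4 were lower (16.0%, against 6.52%). Scn8a, the sodium channel of the axon initial segment, read 11.61, 11.64, 11.67 and 11.60 on wild-type control arrays and 11.72, 11.79, 11.81, 11.72 and 11.89 on wild-type ibuprofen arrays. In APP-PS1 mice it read 11.87, 11.72, 11.66, 11.60 and 11.61 on control arrays and 11.59, 11.68, 11.63, 11.56 and 11.56 on ibuprofen arrays. The wild-type diets did not overlap and the APP-PS1 diets did. Its interaction was -0.24 (SE 0.07), that of Scn3a, another pore subunit, -0.44 (SE 0.13), and that of the auxiliary subunit Scn3b -0.27 (SE 0.08). These were -0.19, -0.33 and -0.33 without the 3 arrays.

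Of 29 potassium channel genes, 26 were below 0 and 9 were lower at an unadjusted p under 0.05 (31.0%, against 16.0%), with a median of -0.12. Without the 3 arrays 17 were below 0 and 5 lower (17.2%, against 6.79%), with a median of -0.02. After an added quantile normalization 14 were below 0, 1 was lower at that p (3.45%, against 6.52%) and the median was 0.01. With all arrays, bin 8, which holds the list's median level, had 617 of 1994 genes lower and a median of -0.17. Kcna4, a channel of transient currents, stood at -0.39 (SE 0.12), and at -0.19 without the 3 arrays. Kcnq3, a subunit of the M-current that restrains firing, stood at -0.23 (SE 0.08) and -0.24.

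Of 31 genes of glutamate receptors and the postsynaptic density, 27 were below 0 and 6 lower at an unadjusted p under 0.05 (19.4%, near the 16.0% of all genes). Leaving out the 3 arrays gave 22 below 0 and 9 lower (29.0%, against 6.79%). An added quantile normalization gave 13 below 0 and 4 lower (12.9%, against 6.52%). Their median was -0.10, -0.04 without the 3 arrays, 0.00 after centring arrays and 0.01 after an added quantile normalization. Grm5, the metabotropic glutamate receptor 5, was at 12.63 to 12.76 on wild-type ibuprofen arrays against 12.43 to 12.61 on their controls, which did not overlap. In APP-PS1 mice it was at 12.40 to 12.60 on ibuprofen and 12.55 to 12.72 on control arrays, and the interaction was -0.25 (SE 0.06), and -0.20. Gria1, an AMPA receptor subunit, stood at -0.18 (SE 0.06), and -0.22, and Grin2a, an NMDA receptor subunit, at -0.19 (SE 0.07), and -0.16. Of 12 GABA receptor genes, 9 were below 0 and 3 were lower at that p (25.0%, against 16.0%). Their median was -0.12 with and without the 3 arrays, and -0.04 after an added quantile normalization, with 0 of 12 then lower. With all arrays, bin 10, which holds the median level of GABA receptor genes, had 459 of 1994 genes lower.

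All 17 oligodendrocyte and myelin genes had an interaction below 0, with a median of -0.18, and 16 of 17 were lower in APP-PS1 and higher in wild-type mice on ibuprofen (49.5% of all genes). Of the 17, 7 had an unadjusted p under 0.05 (41.2%, against 16.0%). Leaving out the 3 arrays gave a median of -0.13, with 16 of 17 below 0 and 2 at that p (11.8%, against 6.79%). The sign pattern was then seen in 10 of 17, against 30.4% of all genes, and in 8 of 17 after an added quantile normalization. The median was -0.08 after centring and -0.05 after that normalization. The list had a median level of 10.94, in bin 9, where 608 of 1994 genes were lower at that p with all arrays. Mal, a proteolipid of myelin, read 11.47, 11.65, 11.45 and 11.46 on wild-type control arrays and 11.61, 11.65, 11.56, 11.81 and 11.63 on wild-type ibuprofen arrays. APP-PS1 control arrays read 11.77, 11.70, 11.68, 11.66 and 11.76, and APP-PS1 ibuprofen arrays 11.73, 11.64, 11.57, 11.55 and 11.60. The diets overlapped in both genotypes. Mal had an interaction of -0.24 (SE 0.07), Tspan2, a tetraspanin, one of -0.40 (SE 0.14), and Mog, a surface protein of myelin, one of -0.29 (SE 0.12). They were -0.24, -0.45 and -0.22 without the 3 arrays. The smallest member was Mbp, myelin basic protein, at -0.02. The mean of the list ranged from 10.55 to 10.92 within the APP-PS1 ibuprofen group alone. Of 12 markers of oligodendrocyte precursors, 11 were below 0, with a median of -0.20, and of -0.04 without the 3 arrays.

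The sign pattern of cholesterol synthesis genes depended on the 3 arrays. With them, all 20 cholesterol synthesis genes were lower in APP-PS1 and higher in wild-type mice on ibuprofen, with a median interaction of -0.17, but 2 of the 20 were lower at an unadjusted p under 0.05, against 16.0% of all genes. Without the 3 arrays the median was -0.02 and 8 of 20 had that sign pattern (30.4% of all genes). Hsd17b7, an enzyme of the pathway, read 10.84 on APP-PS1 control replicate 1 and 10.15 to 10.27 on the other 4 controls, and its interaction was -0.47 (SE 0.17), and -0.19 without the 3 arrays. Ebp, another enzyme, stood at -0.44 (SE 0.13), and -0.22. Of 24 genes of PPAR targets and fat oxidation, 19 were below 0 with a median of -0.15, and -0.01 without the 3 arrays. Slc25a20, the mitochondrial carnitine carrier, was at -0.40 (SE 0.14), and -0.17, and Acadm, a dehydrogenase of fat oxidation, at -0.37 (SE 0.16), and -0.15.

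Of 37 respiratory chain genes, 30 were below 0, 8 were lower at an unadjusted p under 0.05 (21.6%, against 16.0% of all genes) and 1 was higher (2.70%, against 4.50%), with a median of -0.13. Without the 3 arrays the median was -0.03 and 2 were lower (5.41%, against 6.79%). The list had a median level of 11.79, in bin 10, where 459 of 1994 genes were lower with all arrays. Sdha, of complex II, stood at -0.15 (SE 0.06), and -0.11, and Cyc1, of complex III, at -0.12 (SE 0.05), and -0.09. Cox7b, of complex IV, was at 0.15 (SE 0.06), and 0.09. The median of 33 cytosolic ribosomal protein genes was 0.00, and 0.04, but 0.10 after an added quantile normalization.

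Endothelial and astrocyte markers also had medians nearer 0 without the 3 arrays, and choroid plexus markers did not. The median of all genes likewise moved, from -0.07 to 0.00. The median of 17 endothelial genes was -0.16, and -0.03 without the 3 arrays. That of 16 astrocyte genes was -0.11, and -0.04, with Mlc1, a membrane protein of astrocyte endfeet, at -0.29 (SE 0.10), and -0.15, and Slc4a4, a bicarbonate transporter, at -0.23 (SE 0.07), and -0.21. The median of 18 glucocorticoid-responsive genes was -0.15, and -0.05, with Fkbp5, a partner of the receptor, at -0.34 (SE 0.14), and -0.20, and Klf9, a transcription factor, at -0.23 (SE 0.09), and -0.17. The median of 18 choroid plexus genes was 0.09, and 0.37, with none at an unadjusted p under 0.05.

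The diets overlapped in both genotypes for Ptgs2, cyclooxygenase-2 and a target of the drug. It read 10.98, 10.90, 10.83 and 10.93 on wild-type control arrays and 11.45, 11.11, 10.87, 10.95 and 11.21 on wild-type ibuprofen arrays. In APP-PS1 mice it read 11.49, 11.04, 11.06, 10.93 and 11.09 on control arrays and 11.07, 10.93, 11.38, 11.19 and 11.23 on ibuprofen arrays. The 2 highest readings came from APP-PS1 control replicate 1 and wild-type ibuprofen replicate 1, which stand apart, and the interaction was -0.17 (SE 0.15), and 0.06 without the 3 arrays. Ptgs1, cyclooxygenase-1, was not analysed here. Over 29 genes of prostaglandins and eicosanoids the median was -0.01, and 0.06, with 3 lower (10.3%, against 16.0% of all genes) and 1 higher (3.45%, against 4.50%) at an unadjusted p under 0.05. The 3 were Faah, which degrades anandamide, at -0.30 (SE 0.10), Acsl4, which activates arachidonic acid, at -0.21 (SE 0.08), and Lta4h, of leukotriene B4 synthesis, at -0.28 (SE 0.12). The 1 was Ptger2, a prostaglandin E2 receptor that raises cyclic AMP, at 0.24 (SE 0.10). Faah, Acsl4, Lta4h and Ptger2 were at -0.22, -0.22, -0.17 and 0.20 without the 3 arrays. The list had a median level of 8.31, in bin 5. With all arrays, 226 of 1994 genes of that bin were lower and 138 higher at an unadjusted p under 0.05.

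Microglial lists had medians near 0 whose sign turned with the scaling, and the median of all genes moved as well. For all genes it was -0.07 as reported and 0.03 after centring. It was 0.00 both after an added quantile normalization and without the 3 arrays. Over 37 genes of plaque-associated microglia the median interaction was -0.01, but 0.09 after centring and 0.06 after an added quantile normalization, with 2 lower at an unadjusted p under 0.05 (5.41%, against 16.0%). It was 0.10 without the 3 arrays, with 1 lower and 4 higher. Cst7, cystatin F, which marks plaque microglia, was at 7.44 to 8.01 on APP-PS1 control and 7.69 to 8.27 on APP-PS1 ibuprofen arrays, against 6.98 to 7.27 on wild-type arrays. Its groups overlapped between diets, with an interaction of 0.21 (SE 0.17), and 0.25. Lpl, lipoprotein lipase, stood at -0.43 (SE 0.17), and -0.34, and read 9.24 on APP-PS1 ibuprofen replicate 3, against 9.99 to 10.10 on the other 4 arrays of that group. The median of 17 homeostatic microglia genes was -0.05, but 0.05 without the 3 arrays, 0.05 after centring and 0.09 after an added quantile normalization. Mertk, a receptor for dying cells, was among them at -0.36 (SE 0.11), and -0.31.

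Of 15 antigen presentation genes, 11 were above 0 with a median of 0.13, and 15 of 15 without the 3 arrays with 0.14. Nlrc5, an activator of class I genes, stood at 0.50 (SE 0.18), and 0.21. B2m, the light chain of class I molecules, stood at 0.67 (SE 0.36), and 0.12. Wild-type ibuprofen replicate 5 read 10.24 for it, against 11.85 or more on all other arrays. Of 31 cytokine, chemokine and NF-kB target genes, 3 were higher (9.68%, against 4.50% of all genes) and 2 lower (6.45%, against 16.0%) at an unadjusted p under 0.05, with a median of 0.05, and 0.09. The list had a median level of 7.94, in bin 4, where 223 of 1993 genes were higher and 126 lower with all arrays. The chemokines Ccl2 and Cxcl1 were at 0.32 (SE 0.14) and 0.29 (SE 0.12), and the cytokines Il33 and Il34 at -0.30 (SE 0.10) and -0.35 (SE 0.13). These 4 were at 0.19, 0.23, -0.28 and -0.14 without the 3 arrays. The medians of 23 type I interferon genes and 15 complement and Fc receptor genes were 0.00 and -0.01, but 0.08 and 0.18 without the 3 arrays, and that of complement was 0.09 after centring and 0.13 after an added quantile normalization. That of 25 reactive astrocyte genes was 0.02, and 0.13.

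Immediate early genes, which neurons switch on within minutes of firing, had a median interaction of 0.00 over 30 genes, with 14 above 0. Of the 30, 2 were higher at an unadjusted p under 0.05 (6.67%, against 4.50%). Without the 3 arrays the median was 0.11, with 25 of 30 above 0, against 50.8% of all genes, and 2 higher (6.67%, against 2.42%). After an added quantile normalization it was 0.13, with 26 of 30 above 0 and 5 higher (16.7%, against 5.32%). Fos, a subunit of the AP-1 transcription factor, read 7.59, 7.93, 8.39 and 7.78 on wild-type control arrays and 7.59, 7.51, 7.69, 7.82 and 7.67 on wild-type ibuprofen arrays. APP-PS1 control arrays read 7.75, 7.64, 7.44, 7.88 and 7.61, and APP-PS1 ibuprofen arrays 7.63, 7.54, 8.09, 8.03 and 7.88. All groups overlapped, the highest array was wild-type control replicate 3, and the interaction was 0.44 (SE 0.19), and 0.45 without the 3 arrays. Ier2 was at 0.25 (SE 0.09), Fosb at 0.38 (SE 0.20) and Arc, a synaptic capsid-like protein, at 0.30 (SE 0.17), and at 0.30, 0.39 and 0.31 without the 3 arrays. For Fosb the array of APP-PS1 ibuprofen replicate 3 read 9.61, against 8.93 to 8.98 on the rest of its group.

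The reverse pattern, higher in APP-PS1 and lower in wild-type mice, lay mostly in dim probe sets. Ctrc, named for a pancreatic protease but annotated in mouse as a transcribed pseudogene, read 8.02, 7.70, 7.78 and 8.06 on wild-type control arrays and 7.31, 7.78, 7.77, 7.95 and 7.01 on wild-type ibuprofen arrays. APP-PS1 control arrays read 7.23, 7.73, 7.75, 7.69 and 7.57, and APP-PS1 ibuprofen arrays 7.84, 7.82, 7.91, 8.19 and 7.77. The 3 lowest readings came from the 3 arrays that stand apart, and the interaction was 0.64 (SE 0.21), and 0.28 without them. Unc13c, a presynaptic priming protein, stood at 0.54 (SE 0.17), and 0.36. Treml4, a myeloid receptor, was at 0.47 (SE 0.14), and 0.30. Besides Penk, the genes of smallest p in this direction were Lce1d, Vmn1r48, Ppm1j, Guca2a, Pla2g2d, Olfr641, Olfr316, Fam131c, Ifna2, Zp4-ps and the microRNA gene Mir212, at 0.35 (Ppm1j) to 0.57 (Ifna2). As background, Lce1d belongs to skin, Guca2a to gut, Zp4-ps to the egg coat, and Vmn1r48, Olfr641 and Olfr316 to sensory neurons.

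Families of genes of that kind had medians above 0, by small amounts. Of 86 keratin-associated and defensin genes, 72 were above 0 with a median of 0.14, and 15 were higher at an unadjusted p under 0.05 (17.4%, against 4.50% of all genes). With the 3 arrays left out, 65 were above 0 with a median of 0.07, and 0 of 86 were higher at that p. The list had a median level of 6.58, in bin 2. There, with all arrays, 147 of 1994 genes were higher at that p and the median was 0.07. Krtap5-3 read 8.70 and 8.01 on wild-type ibuprofen replicates 1 and 5 and 9.11 to 9.63 on the other 3, with an interaction of 0.78 (SE 0.30), and 0.27. Of 1194 olfactory and vomeronasal receptor genes, 713 were above 0 and 481 below, with a median of 0.03, and 70 were higher (5.86%, near the 4.50% of all genes) and 22 lower (1.84%, against 16.0%) at an unadjusted p under 0.05. Leaving out the 3 arrays gave a median of 0.05, with 49 higher (4.10%, against 2.42%) and 6 lower. The receptor genes had a median level of 5.47, in bin 1. There, with all arrays, 51 of 1994 genes were higher and 57 lower at that p.

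**Figure D5:**
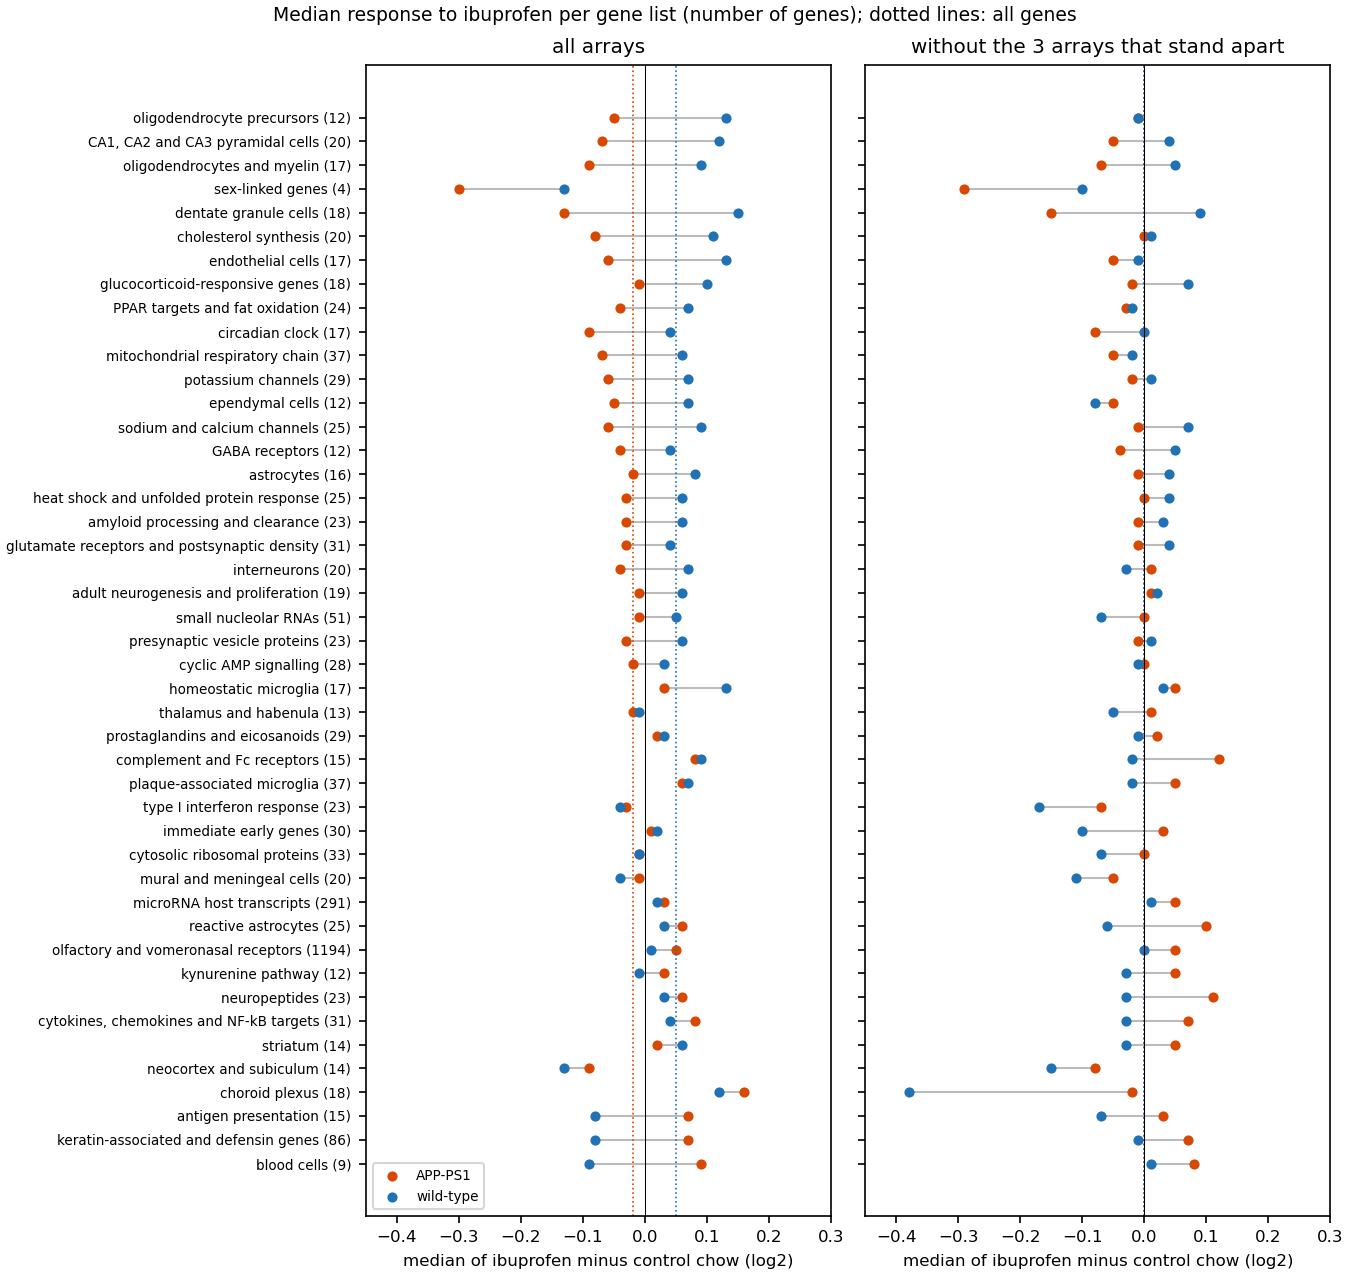
Median log2 difference between ibuprofen and control chow per gene list in APP-PS1 mice (orange) and wild-type mice (blue), with all arrays on the left and without the 3 arrays that stand apart on the right; dotted lines mark all genes and the number of genes is in brackets. The granule cell list keeps a gap between genotypes on both sides, at -0.13 and 0.15 with all arrays, while the cholesterol list closes from -0.08 and 0.11 to 0.00 and 0.01; after an added quantile normalization the medians of channel and glutamate receptor lists lie near 0.

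MicroRNA genes were measured by probe sets on their loci after whole-transcript labelling, so the values may reflect precursors or host transcripts. Levels of the mature forms were not measured on their own. Of 291, 40 were higher (13.7%, against 4.50% of all genes) and 22 lower (7.56%, against 16.0%) at an unadjusted p under 0.05. The numbers were 8 (2.75%, against 2.42%) and 12 (4.12%, against 6.79%) without the 3 arrays. The microRNA genes had a median level of 6.71, in bin 2. There, with all arrays, 147 of 1994 genes were higher and 28 lower at that p. Both mature arms from RefSeq (build GRCm38.p6) are printed for 2 loci of the reverse pattern or the higher direction, Mir212 and Mir17, and for the 3 loci with the smallest p in the lower direction. Capitals mark the seed, bases 2 to 8.
mmu-miR-212-5p, chr11:75173403-75173425, plus strand: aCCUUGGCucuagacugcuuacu
mmu-miR-212-3p, chr11:75173443-75173464, plus strand: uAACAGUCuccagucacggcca
mmu-miR-17-5p, chr14:115043684-115043706, plus strand: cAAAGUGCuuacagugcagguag
mmu-miR-17-3p, chr14:115043721-115043742, plus strand: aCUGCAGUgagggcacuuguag
mmu-miR-99a-5p, chr16:77598940-77598961, plus strand: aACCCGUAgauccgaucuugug
mmu-miR-99a-3p, chr16:77598977-77598997, plus strand: cAAGCUCGuuucuaugggucu
mmu-miR-488-5p, chr1:158505651-158505671, plus strand: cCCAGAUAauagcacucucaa
mmu-miR-488-3p, chr1:158505689-158505709, plus strand: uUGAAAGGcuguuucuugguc
mmu-miR-181b-5p, chr2:38853845-38853868, plus strand: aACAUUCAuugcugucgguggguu
mmu-miR-181b-2-3p, chr2:38853883-38853904, plus strand: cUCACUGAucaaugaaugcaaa
The 10 arms have 10 different seeds, so none are grouped. By gene number 262 of the 291 microRNA genes matched the RefSeq table.

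Mir212, whose locus responds to neuronal activity, read 9.04, 9.17, 9.18 and 9.27 on wild-type control arrays and 8.78, 9.07, 8.87, 9.05 and 8.84 on wild-type ibuprofen arrays. In APP-PS1 mice it read 8.83, 9.04, 8.97, 9.08 and 8.98 on control arrays and 9.02, 9.04, 9.20, 9.30 and 9.10 on ibuprofen arrays. The diets overlapped in both genotypes, and the interaction was 0.40 (SE 0.11), and 0.29 without the 3 arrays. Mir17, of a cluster tied to cell division, was dimmer, at 5.60 to 6.23, with an interaction of 0.43 (SE 0.13), and 0.27. In the lower direction the wild-type response was the larger part of the difference. Mir488, dimmer still than Mir17, read 4.64 to 4.81 on wild-type control and 4.83 to 5.43 on wild-type ibuprofen arrays. Its interaction was -0.44 (SE 0.12), and -0.46. Mir181b-2 read 6.60 to 6.88 and 6.99 to 7.49 on the same groups, with -0.53 (SE 0.15), and -0.32, and Mir99a read 7.71 to 8.11 on wild-type control and up to 8.83 on wild-type ibuprofen arrays, with -0.72 (SE 0.21), and -0.39. The APP-PS1 responses of Mir488 and Mir181b-2 were -0.04 (SE 0.08) and -0.05 (SE 0.10). That of Mir99a was -0.21 (SE 0.14), beside 0.51 (SE 0.15) in wild-type mice.

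Genes of cyclic AMP signalling and the kynurenine pathway went both ways. Arpp21, a phosphoprotein regulated by cyclic AMP, read 11.40, 11.23, 11.41 and 11.32 on wild-type control arrays, 11.16 to 11.29 on wild-type ibuprofen, 10.95 to 11.13 on APP-PS1 control and 11.00 to 11.24 on APP-PS1 ibuprofen arrays. Its interaction was 0.21 (SE 0.08), and 0.20. Pde7b, a cyclic AMP phosphodiesterase, stood at -0.45 (SE 0.18), and -0.47, with 9.33 to 9.82 on 4 APP-PS1 ibuprofen arrays and 10.36 on replicate 2. The median of 28 cyclic AMP signalling genes was -0.05, but 0.01 without the 3 arrays, 0.05 after centring and 0.06 after an added quantile normalization. In the kynurenine pathway, apart from Tdo2, Qprt, which makes NAD precursor, was at 0.33 (SE 0.11), and 0.27, and Kyat1, which makes kynurenic acid, at -0.27 (SE 0.11), and -0.09 without the 3 arrays. Col3a1, a collagen of meninges and vessels, was at 0.34 (SE 0.12), and 0.30, within a list of 20 genes whose median was 0.02.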

How the data were processed

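The authors deposited log2 expression values per probe set, for which the submitters' processing notes name RMA in Partek 6.5. Per the labels' protocols, RNA came from Trizol extraction followed by RNeasy clean-up, and a whole-transcript assay was used for labelling. RMA settings are not given in the sources used here, nor whether its quantile step spanned all arrays; the 3 arrays set apart have wider distributions. Values ran from 3.46 to 14.80 and array medians from 8.06 to 8.14. GEO's annotation of the array, which can be old, gave 1 symbol to 21789 probe sets, several to 1621 and none here to 12146, and 21698 matched RefSeq gene numbers. The brightest probe set of each symbol was kept (999 of 19938 genes had more than 1), with no filter. A limma 3.58.1 fit in R 4.3.3 of 4 group means with an intensity trend (15 residual and 6.65 prior degrees of freedom) gave 3 contrasts, with Benjamini-Hochberg adjustment and a threshold of 0.05. SE is limma's and SD is between arrays, and p-values measure only the spread between these samples, which the labels do not tie to single animals. On simulated data the interaction recovered 1%, 53.5% and 97% of genes changed by 0.25, 0.5 and 1 (log2), with 0, 10 and 10 false calls beside 200 changed genes of each size. The simulated noise was independent between genes and arrays. It held no arrays that stand apart and no correlated arrays, so these rates may not hold for the real data. Precision is limited by the number of arrays. Genes were named by rule: the 12 of smallest interaction p in each direction, those with the largest opposite responses, up to 4 of each list by p with its defining members, and a set always given. Predicted genes were counted and not named. Members and lists were chosen with earlier results of these data known. The alternatives (15, and 19 arrays left out in turn) are in the closing section. Figures used Python 3.11.15 and matplotlib 3.10.9.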

Additional observations from a re-analysis of the deposited data

Results flagged for a closer look

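In 26 of 380 groups of the genes named above, 1 array lay far from the rest of its group by Dixon's criterion at the 95% level, which chance alone meets in about 1 of 20 groups. Of these, 5 fell on APP-PS1 control replicate 1, which stands apart. There Pcdhb7 read 8.87 against 8.51 to 8.58 in the rest of its group, Hsd17b7 10.84 against 10.15 to 10.27, Mlc1 11.10 against 10.95 to 10.98, Ptgs2 11.49 against 10.93 to 11.09, and Mir181b-2 7.21 against 6.75 to 6.85. On wild-type ibuprofen replicate 5, which also stands apart, Lpl read 10.29 against 10.01 to 10.08, Faah 11.56 against 11.30 to 11.37 and B2m 10.24 against 11.88 to 12.24.

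On APP-PS1 ibuprofen replicate 2, Dsp read 9.31 against 8.35 to 8.46 and Drd1 8.81 against 9.26 to 9.39. On replicate 3 of that group, Lpl read 9.24 against 9.99 to 10.10 and Fosb 9.61 against 8.93 to 8.98, and on replicate 4 Ptger2 read 6.97 against 6.68 to 6.74. On APP-PS1 control replicate 2, Arpp21 read 11.13 against 10.95 to 10.99.

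Wild-type control replicate 3 was low for Kctd4, at 10.85 against 11.01 to 11.03, for Iyd, at 8.09 against 8.13, for Slc25a20, at 9.01 against 9.27 to 9.32, and for Sdha, at 12.24 against 12.44 to 12.46. Replicate 2 of that group read 5.46 against 5.21 to 5.23 for Vmn1r48, 5.89 against 6.06 to 6.10 for Mir17 and 11.65 against 11.45 to 11.47 for Mal. Replicate 4 read 6.93 against 6.84 to 6.85 for Guca2a, 10.86 against 10.56 to 10.61 for Nlrc5 and 13.16 against 13.21 to 13.22 for App. On wild-type ibuprofen replicate 4, Ifna2 read 7.92 against 7.61 to 7.67 and Cst7 7.27 against 6.99 to 7.06.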

How the results depend on the processing

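With limma, 0 genes were called in the interaction except with array weights (174), with the striatum covariate (2503, of which 151 were among the 174) and without APP-PS1 ibuprofen replicate 2 (0 to 13 over the 19 arrays left out in turn). For ibuprofen in APP-PS1 mice 0 were called, except 108 with array weights, 1 with the striatum covariate and 0 to 3 with 1 array left out. In wild-type mice 0 were called, except 2 with array weights and 1 when all probe sets were tested. The 229 genes with opposite responses became 120 after median centring, 117 after an added quantile normalization, 396 with array weights, 43 with the oligodendrocyte covariate, 831 with the striatum covariate and 114 with the covariate of Y-linked genes and Xist. They became 80 without the 3 arrays that stand apart, and 97 to 519 with 1 array left out. The cause of these changes was not tested. Replicate numbers were shared by the groups in the labels, and 16 of 27 same-numbered pairs correlated over 0.1 (range -0.27 to 0.6), including all 5 of APP-PS1 control with wild-type ibuprofen and all 4 of APP-PS1 ibuprofen with wild-type control, but 0 of 4 of the 2 control groups. Of 19 arrays, 3 matched their own number best in every other group. APP-PS1 control and wild-type ibuprofen both enter the interaction with a minus sign, and the other groups with a plus sign. The correlated pairs thus lie along the contrast, and the main fit treated these arrays as independent. Whether they share an unlabelled factor was not tested. Since not every pair passed, the numbers were not taken as pairing. With the replicate block 375 genes had opposite responses and 0 were called in the interaction. Of 95 genes named by rule, 29 were called with array weights, 65 with the striatum covariate and 9 without APP-PS1 ibuprofen replicate 2. Changes of sign were seen in 5 genes, of which App, Prnp and Xist lay near 0, while Ptgs2 was at -0.17 (SE 0.15) and Ttr at 0.67 (SE 1.11). App was at 0.04 after centring and 0.02 with array weights, and Ptgs2 at 0.06 without the 3 arrays. Prnp was at 0.10 after centring, 0.03 after quantile normalization, 0.04 with array weights and 0.00 with the replicate block and the striatum covariate. Xist was at 0.09 after centring and 0.02 with the striatum covariate. With 1 array left out, Prnp ranged from -0.02 to 0.02, Xist from -0.08 to 0.04 and Ttr from -0.02 to 1.18. Signal over background was not available here, so differences among dim probe sets have no detection limit.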
